A study of Brassica napus with 12 samples.

Results

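In root tips of the oilseed rape variety Drakkar, a set of 45 genes had fewer reads after growth at 29 °C than after growth at 21 °C, while their mean level in the variety Duplo stayed close to its 21 °C value. They are 45 of 101038 genes in the count tables. Each gene's share of the reads in a library was expressed as CPM (counts per 1000000 counts). A gene was taken when its lowest Drakkar library at 21 °C held at least 1 CPM and at least 1.5 times the highest Drakkar library at 29 °C, when its mean over the Duplo libraries at 21 °C was at least 0.5 CPM, and when the Duplo mean at 29 °C was between 0.8 and 1.25 times that at 21 °C. The read counts themselves chose these genes, so their Drakkar and Duplo responses are given as a description and support nothing further. Both Drakkar criteria were met by 267 genes, of which 260 also had the required level in Duplo. Of these 260, 201 lay below the Duplo band and 14 above it.

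Seedlings of Drakkar and Duplo, both grown as spring oilseed rape (*Brassica napus*), were germinated on agar for 3 days and then kept for 7 days at a constant 21 °C or 29 °C in pouches with nutrient solution. No other treatment separated the groups, and the plants carried no transgene or mutation named in the labels. The library labels give the harvested tissue as the last 1 cm of the root, and the study's methods a shorter piece that ends at the first differentiated cell. Meristem and elongation zone were thus sampled together, and a 1 cm piece would also hold differentiated tissue. All 4 groups (Drakkar and Duplo, each at both temperatures) had 3 replicates, each a pool of seedlings, and each variety stands for 1 genotype. In such bulk tissue, fewer cells of a type and less RNA per cell cannot be told apart.

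A few of the 45 genes belong to processes with known roles in a growing root tip. Cells leaving the meristem elongate while tubulin polymers guide cellulose deposition, pectin methylesterases adjust the stiffness of the pectin matrix, and laccases can polymerise monolignols in cell walls. ABCG-type transporters move hormones and defence compounds across the plasma membrane. Nitrate reductase carries out the first step in turning nitrate into organic nitrogen. Oilseed rape is an allotetraploid with an A and a C subgenome, so most Arabidopsis genes have several copies in it, and how reads were divided between near-identical copies is uncertain for every gene named here.

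The 12 libraries held between 26554987 and 39934384 counts. Annotation came from the lists of responsive genes that accompany the study, which cover 2394 genes, and a role is therefore known only by the Arabidopsis relative. It gave an Arabidopsis locus for 40 of the 45 genes and a gene name for 21. A list from the study, of genes repressed in Drakkar and less repressed or induced in Duplo, holds 41 of the 45. That list (260 genes, a number it shares with the set above by coincidence) was chosen on both responses in these same samples, and 102 of its genes met the Drakkar criteria. Of 31 loci written down as markers of root cell types and leaf, 3 had an annotated gene in this crop, so the labelled tissue could not be checked against markers of root cap, root hair, meristem, dividing cells, xylem or leaf. The endodermis gene *CASP1* (BnaC04g09210D) was present in every library, from 1.94 to 8.91 CPM. It met the Drakkar criteria itself, with 8.32, 8.89 and 8.91 CPM in Drakkar at 21 °C and 5.47, 4.66 and 1.94 CPM at 29 °C. Its Duplo ratio of 1.63 placed it above the band. *CASP5* (BnaA10g18830D) was at 0 in all libraries at 21 °C and at most at 0.491 CPM at 29 °C. The phloem sucrose transporter gene *SUC2* (BnaA09g30430D) ranged from 1.17 to 12.8 CPM, with its highest values, 12.8 and 11.5 CPM, in replicate 3 at 29 °C of Drakkar and of Duplo. Those 2 libraries also had the lowest *CASP1* of their groups, 1.94 and 3.87 CPM. The part of such shifts in the values below was not tested.

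The 45 genes ranged widely in level. Their mean in Drakkar at 21 °C lay between 1.13 and 453 CPM, with a median of 6.46 CPM. There were 6 genes with over 100 CPM, 13 with 10 to 100 CPM and 26 with less than 10 CPM, of which 7 were under 2 CPM. The 8 genes with the most reads held 84.2% of the reads of all 45 in these libraries, a share that is not corrected for gene length. The lowest single count was 8 reads and the highest 18828, so the small values carry a much larger counting error. In Drakkar, the mean at 29 °C was 0.185 to 0.585 times that at 21 °C, with a median of 0.427. The ratio of the lowest library at 21 °C to the highest at 29 °C ran from 1.5 to 3.04, with a median of 1.66.

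The most abundant of them was a gene for alpha tubulin, *BnTUBA3* (BnaC03g09740D). In Drakkar it had 450, 471 and 437 CPM in replicates 1 to 3 at 21 °C, and 273, 244 and 227 CPM at 29 °C. In Duplo it had 456, 443 and 451 CPM at 21 °C, then 462, 413 and 225 CPM at 29 °C. At 21 °C both varieties thus held this transcript at nearly the same level, and in Duplo at 29 °C replicates 1 and 2 stayed near that level while replicate 3 was as low as the Drakkar libraries. The log2 fold change, 29 °C over 21 °C, was -0.99 (standard error, SE, 0.12) in Drakkar and -0.34 (SE 0.25) in Duplo. A further annotated copy, BnaC09g37930D, had lower values at 29 °C in both varieties and a Duplo ratio of 0.727, below the band. The second most abundant gene, BnaA03g07740D, has no annotation, and followed almost the same course, with 440, 450 and 447 CPM in Drakkar at 21 °C and 292, 246 and 232 CPM at 29 °C. In Duplo, BnaA03g07740D had 422, 403 and 401 CPM at 21 °C, then 443, 408 and 216 CPM at 29 °C, again with replicate 3 alone below.

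**Figure D1:**
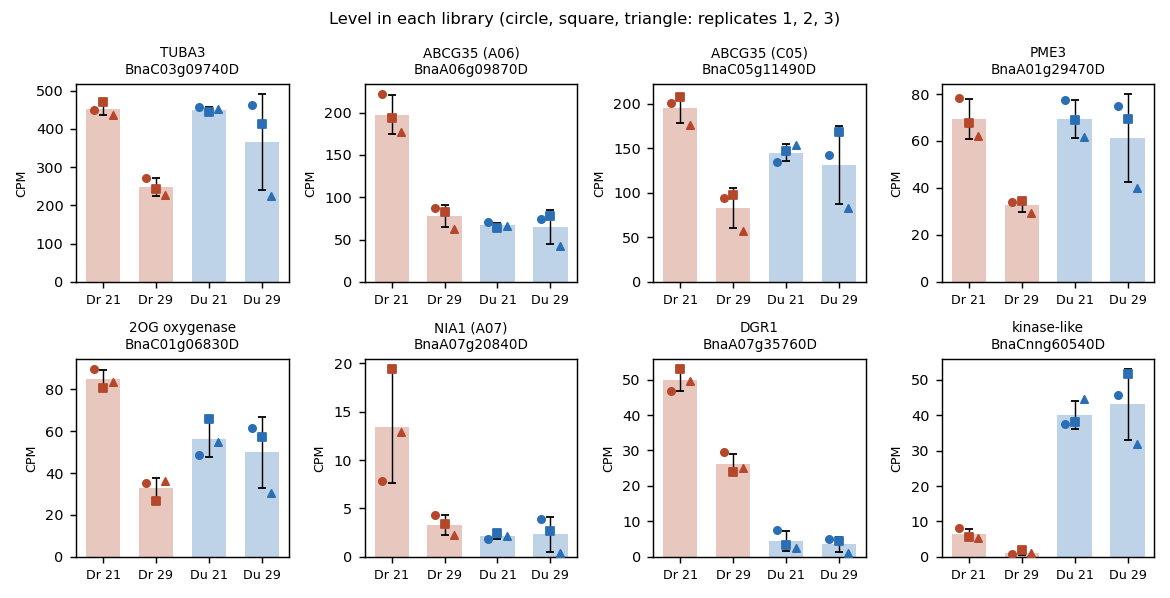
CPM of 8 of the 45 genes in each library, by variety (Dr, Drakkar, red; Du, Duplo, blue) and temperature in °C. Bars are means and error bars SD over the 3 replicates, which are drawn as circle, square and triangle (replicates 1, 2 and 3). The 3 Drakkar libraries at 29 °C lie below all those at 21 °C in every panel by construction of the rule. The Duplo triangle at 29 °C is the lowest of its group in every panel.

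Both annotated homoeologues of *BnABCG35*, a transporter gene of the pleiotropic drug resistance type, were among the 45. The A-subgenome copy BnaA06g09870D had 222, 193 and 177 CPM in Drakkar at 21 °C and 87.0, 83.1 and 62.9 CPM at 29 °C. In Duplo it had 70.3, 63.9 and 66.1 CPM at 21 °C, then 74.8, 77.6 and 42.1 CPM at 29 °C. The level in Drakkar therefore came down at 29 °C to about that found in Duplo at either temperature. The C-subgenome copy BnaC05g11490D had 201, 207 and 176 CPM in Drakkar at 21 °C and 94.3, 97.5 and 56.9 CPM at 29 °C. In Duplo this copy had 135, 147 and 153 CPM at 21 °C, then 143, 169 and 83.0 CPM at 29 °C. The copies had similar folds in Drakkar, with log2 fold changes of -1.47 (SE 0.17) and -1.35 (SE 0.22), but only the A copy was much lower in Duplo at 21 °C.

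Genes with roles in the cell wall formed a group that could be recognised by annotation. *BnPME3* (BnaA01g29470D), a pectin methylesterase gene, had 78.5, 67.5 and 62.1 CPM in Drakkar at 21 °C and 34.0, 34.5 and 29.2 CPM at 29 °C. In Duplo it had 77.6, 69.0 and 61.7 CPM at 21 °C, then 74.8, 69.4 and 40.0 CPM at 29 °C. The varieties matched closely at 21 °C, and the 3 Drakkar libraries at 29 °C lay below every Duplo library. *BnDGR1* (BnaA07g35760D) encodes a cell wall protein of the DUF642 family. It had 46.8, 53.1 and 49.7 CPM in Drakkar at 21 °C and 29.4, 23.9 and 25 CPM at 29 °C, against 7.62, 3.21 and 2.44 CPM in Duplo at 21 °C and 5.11, 4.41 and 1.14 CPM at 29 °C. Drakkar thus stayed far above Duplo at both temperatures, and the Duplo ratio of 0.803 was the closest of all 45 to the lower edge of the band.

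Among the wall genes of lower level were *BnLAC8* (BnaC03g00490D), a laccase gene, and *BnBBE-LIKE 13* (BnaA07g07060D), whose Arabidopsis relative acts on monolignols. *BnLAC8* had 9.71, 6.94 and 6.71 CPM in Drakkar at 21 °C and 2.65, 3.1 and 3.96 CPM at 29 °C, whereas the 6 Duplo libraries ranged from 3.30 to 5.80 CPM. *BnBBE-LIKE 13* had 7.30, 6.01 and 5.84 CPM in Drakkar at 21 °C and 2.59, 3.03 and 3.51 CPM at 29 °C, and from 7.79 to 12 CPM in Duplo. For *BnBBE-LIKE 13*, Duplo replicate 3 at 29 °C was the highest of the 6 Duplo libraries, unlike for most of the other genes. The pectin lyase-like gene BnaA08g28340D completes this group, with 2.19 to 2.78 CPM in Drakkar at 21 °C and 0.448 to 1.22 CPM at 29 °C.

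Genes of nitrogen and amino acid metabolism were few. The nitrate reductase gene *BnNIA1* (copy BnaA07g20840D) had 7.86, 19.4 and 12.9 CPM in Drakkar at 21 °C and 4.32, 3.41 and 2.24 CPM at 29 °C. In Duplo it had 1.81, 2.41 and 2.1 CPM at 21 °C, then 3.88, 2.67 and 0.355 CPM at 29 °C. Its level in Drakkar at 21 °C was therefore spread over more than a factor of 2 between replicates but above all other libraries, and its lowest Duplo value rests on 10 reads. The log2 fold change was -2.12 (SE 0.36) in Drakkar and 0.09 (SE 0.69) in Duplo. *BnNRT1.12* (BnaA01g28150D), a low-affinity nitrate transporter gene, had 1.65, 2.60 and 1.76 CPM in Drakkar at 21 °C and 0.851, 0.975 and 0.523 CPM at 29 °C, and in Duplo 1.65 to 2.27 CPM at 21 °C, then 0.852 to 2.18 CPM at 29 °C. A tyrosine transaminase family gene, BnaC07g38400D, had 10.8, 4.88 and 7.63 CPM in Drakkar at 21 °C and 2.65, 2.75 and 2.16 CPM at 29 °C, and from 2.84 to 5.84 CPM in Duplo.

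Several genes are annotated to lipid handling. *BnROSY1* (BnaA03g34050D), which encodes a lipid-recognition protein that binds a synaptotagmin, had 146, 83.4 and 107 CPM in Drakkar at 21 °C and 52.6, 43.1 and 47.3 CPM at 29 °C. In Duplo it had 82.7, 81.1 and 75.1 CPM at 21 °C, then 63.8, 91.3 and 45.4 CPM at 29 °C. The Drakkar groups were apart, as the rule requires, and replicate 1 at 21 °C stood well above the other replicates at that temperature. The membrane-bound O-acyl transferase (MBOAT) gene BnaC07g38510D had 16.0, 19.9 and 15 CPM in Drakkar at 21 °C and 8.58, 6.72 and 7.24 CPM at 29 °C, and between 1.75 and 3.94 CPM in Duplo. *BnPAS2* (BnaA10g21780D), whose Arabidopsis relative is needed for the synthesis of very-long-chain fatty acids, had 1.67 to 2.18 CPM in Drakkar at 21 °C and 0.784 to 1.01 CPM at 29 °C. BnaA07g19260D and *BnRXW8* (BnaA01g21850D), labelled as GDSL lipase genes by annotation alone, had Drakkar ratios of means, 21 °C over 29 °C, of 1.96 and 2.17.

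Regulatory genes included both annotated copies of the homeobox gene *BnHB-3*, which in Arabidopsis is expressed mainly in the root cortex. The A10 copy BnaA10g18950D had 8.74, 9.39 and 16.0 CPM in Drakkar at 21 °C and 4.78, 4.28 and 3.06 CPM at 29 °C, and the C05 copy BnaC05g20010D had 5.48, 4.01 and 4.95 CPM and then 1.83, 2.05 and 2.5 CPM. In Duplo at 29 °C, the A10 copy had 8.11, 8.21 and 3.52 CPM and the C05 copy 4.23, 5.50 and 1.46 CPM, so that replicate 3 was lowest for both. Calcium signalling was also represented. *BnPCAP1* (BnaC07g18150D), for a calcium-binding protein of the plasma membrane, had a Drakkar ratio of means, 21 °C over 29 °C, of 3.03, and *BnCPK16* (BnaA06g25490D), for a calcium-dependent protein kinase, one of 3.16.

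The steepest fold belonged to a kinase-like gene, BnaCnng60540D (Arabidopsis locus AT3G46280). It had 8.01, 5.51 and 5.39 CPM in Drakkar at 21 °C and 0.753, 1.78 and 0.970 CPM at 29 °C. In Duplo it had 37.6, 38.2 and 44.7 CPM at 21 °C, then 45.8, 51.6 and 32.0 CPM at 29 °C. No Drakkar library reached the lowest Duplo library at either temperature, and the log2 fold change was -2.55 (SE 0.34) in Drakkar and 0.06 (SE 0.18) in Duplo. A 2-oxoglutarate-dependent oxygenase gene, BnaC01g06830D, combined a large fold with a high level. It had 89.9, 80.8 and 83.8 CPM in Drakkar at 21 °C and 35.2, 26.8 and 36.2 CPM at 29 °C, against 48.5, 65.8 and 54.8 CPM in Duplo at 21 °C and 61.6, 57.4 and 30.6 CPM at 29 °C. The acyl-transferase family gene BnaA05g05610D had 13.4, 14.7 and 11.3 CPM in Drakkar at 21 °C and 3.83, 4.84 and 4.70 CPM at 29 °C, while its Duplo libraries overlapped between the temperatures. Another 3 genes had a lowest Drakkar library at 21 °C close to 2 times the highest at 29 °C. They were BnaA03g02710D (a hydrolase-like gene, 2.0 times), *BnSCPL43* (BnaA03g38300D, a serine carboxypeptidase-like gene, 1.96 times) and BnaC06g17230D (a solute carrier family 35 gene, 1.96 times).

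The genes without a known locus spanned the whole range of levels. Besides BnaA03g07740D, they were BnaA03g04680D, BnaC03g40430D, BnaA03g44110D and BnaC02g41140D. BnaA03g04680D had 116, 122 and 116 CPM in Drakkar at 21 °C and 73.4, 74.7 and 58.9 CPM at 29 °C, against 138 to 148 CPM in Duplo at 21 °C and 141, 134 and 92.7 CPM at 29 °C. BnaC03g40430D had 19.7, 20.6 and 17.9 CPM in Drakkar at 21 °C and 11.8, 11.9 and 9.41 CPM at 29 °C, and in Duplo at 29 °C 44.8, 42.2 and 18.1 CPM. BnaA03g44110D had 3.89, 4.28 and 3.9 CPM in Drakkar at 21 °C and 1.73, 1.46 and 1.61 CPM at 29 °C, and in Duplo at 29 °C 13.4, 11.7 and 5.11 CPM. These 3 genes were higher in Duplo than in Drakkar in every pair of libraries at 21 °C, and their Duplo values at 29 °C were again split between replicate 3 and the others. BnaC02g41140D stayed between 0.442 and 1.18 CPM in all libraries, near the lower limit of the rule.

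The remaining genes encode enzymes, an RNA-binding protein and proteins of unknown role, without a shared process by annotation. The haloacid dehalogenase-like gene BnaAnng00280D had 17.1, 18.5 and 18.5 CPM in Drakkar at 21 °C and 10.4, 10.5 and 7.32 CPM at 29 °C, while its Duplo libraries scattered from 10.3 to 26.6 CPM at 21 °C and from 12.2 to 27 CPM at 29 °C. *BnNUDT3* (BnaA07g35120D), a nudix hydrolase gene, had 13.7, 14.7 and 11.6 CPM in Drakkar at 21 °C and 7.1, 6.23 and 3.96 CPM at 29 °C, and 1.47 to 2.64 CPM in Duplo. BnaC06g38760D, for an RNA-binding protein, had 29, 35.8 and 24.2 CPM in Drakkar at 21 °C and 15.3, 13.2 and 9.67 CPM at 29 °C, and in Duplo at 29 °C 32.5, 29.9 and 13.4 CPM. *BnNUDT3* was the steadier in Duplo, where replicate 3 at 29 °C lay between replicates 1 and 2. Others were of lower level, with at most 12.1 CPM in any Drakkar library for *BnPPPS2* (BnaA03g35610D, a terpenoid synthase gene), *BnHHP2* (BnaA03g51100D, for a heptahelical membrane protein), a second 2-oxoglutarate-dependent oxygenase gene (BnaC09g54260D), the Core-2 glycosyltransferase gene BnaC02g18110D, a second hydrolase-like gene (BnaC09g20130D), a glycoside hydrolase gene (BnaA08g26670D) and an NAD(P)-binding protein gene (BnaA07g32770D).

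At 2 of the 3 thresholds, the genes just inside and just outside were close in value. At the Drakkar threshold, BnaA07g20640D (1.502) and BnaC03g40430D (1.503) were taken, and *BnGAE4* (BnaC03g25270D, 1.494) and BnaA04g17370D (1.493) were not. At the lower edge of the Duplo band, *BnDGR1* (0.803) and *BnTRM9* (BnaC04g53860D, a tRNA methyltransferase gene, 0.806) were inside, and BnaA05g31100D (0.798) and *BnAAD1* (BnaC09g41580D, 0.797) were outside. At the upper edge, BnaC03g17300D (1.19) and BnaA07g20640D (1.18) were the closest inside, and BnaA04g27600D (1.27) and a second *BnNIA1* copy, BnaC06g38300D (1.32), were the closest outside, a wider gap than at the other edges.

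The means in Duplo covered libraries that did not behave alike. Against the Duplo mean at 21 °C, the median ratio over the 45 genes was 1.03 in replicate 1 and 1.14 in replicate 2 at 29 °C, but 0.576 in replicate 3. The 3 Drakkar libraries at 29 °C had medians of 0.481, 0.468 and 0.393 against the Drakkar mean at 21 °C. Replicate 3 was the lowest of the Duplo libraries at 29 °C for 40 of the 45 genes, compared with 41.7% of all expressed genes (at least 1 CPM in any library). It lay below all Duplo libraries at 21 °C for 33 of them, compared also with 41.7% of the 25671 genes that met the same level minima and the same Duplo band. Replicates 1 and 2 lay below all of them for 4 and 3 of the 45, compared with 24.0% and 25.0% of those genes. The rule used these libraries, so the counts describe how the genes came to lie in the band.

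**Figure D2:**
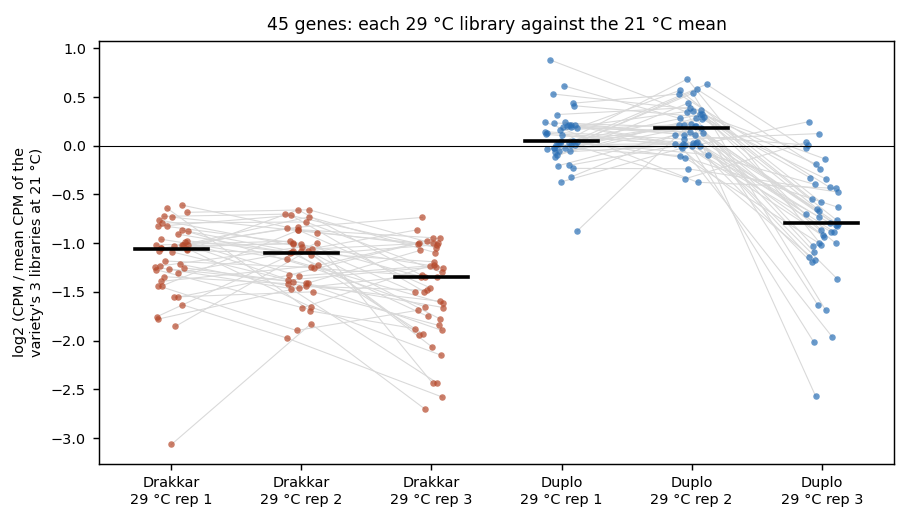
Log2 ratio of each 29 °C library to the mean of the same variety at 21 °C for the 45 genes (points, joined by grey lines within a variety), with black bars at the medians. Points at 0 equal the 21 °C mean. The medians of Duplo replicates 1 and 2 correspond to ratios of 1.03 and 1.14, and that of replicate 3 to 0.576, closer to the Drakkar libraries (0.393 to 0.481).

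The level of the 45 genes together showed the same split. Their summed CPM in replicates 1 to 3 was 2052, 2012 and 1904 in Drakkar at 21 °C and 1094, 992 and 869 at 29 °C. In Duplo it was 1700, 1706 and 1684 at 21 °C and 1774, 1743 and 949 at 29 °C. The coefficient of variation between replicates had a median over the genes of 34.2% in Duplo at 29 °C, compared with 12.6% and 16.0% in Drakkar and 18% in Duplo at 21 °C. Over all 48745 genes with at least 0.5 CPM in Duplo at 21 °C, replicate 3 was 0.980 times the mean of replicates 1 and 2 (median), compared with 0.532 for the 45. That library nevertheless stood apart over all genes. Its counts differed from those of replicates 1 and 2 with a chi-square per degree of freedom of 60.5 and 49.0, compared with 8.67 between replicates 1 and 2, and without it the number of Duplo DEGs over all genes (edgeR) was 396 rather than 1. The replicate with the highest *SUC2* in Drakkar, replicate 3 at 29 °C, was also the lowest of its group for 30 of the 45 genes, compared with 26.8% of all expressed genes.

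Without Duplo replicate 3 at 29 °C, the median Duplo ratio of the 45 genes was 1.09 rather than 0.911, and 32 of them had a ratio above 1 rather than 13. Of the 45, 36 lay inside the band, 9 lay above it and 0 below. Applied to the 11 remaining libraries, the rule took 61 genes, including those 36. Of the other 215 genes lowered in Drakkar, 25 lay inside the band without that library, 176 below and 14 above, and their median Duplo ratio was 0.586 without it and 0.524 with it. These 215 genes were low in replicates 1 and 2 as well, with median ratios of 0.541 and 0.610, and 0.388 in replicate 3. With all libraries, 201 of them lay below the band, so low Duplo ratios were built into this set.

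**Figure D3:**
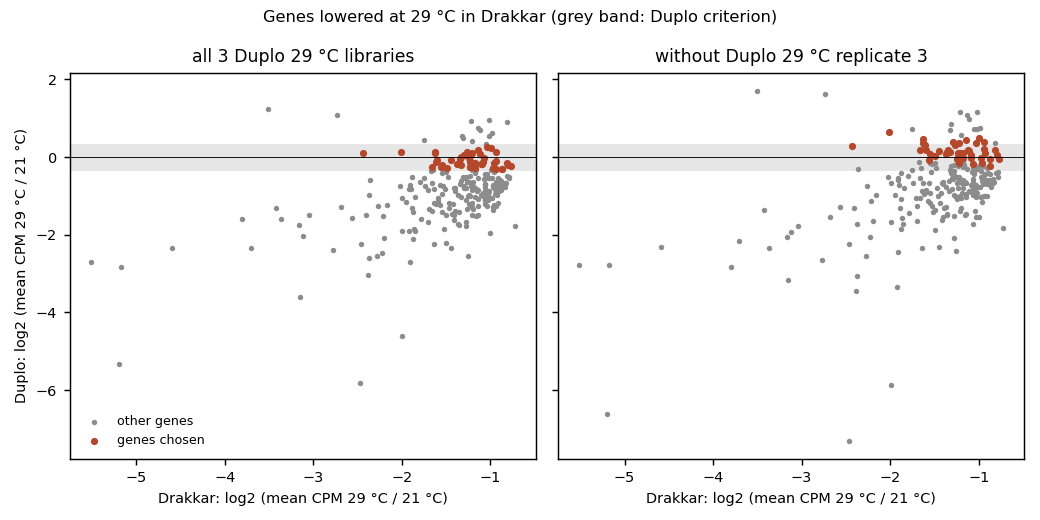
Log2 ratio of mean CPM, 29 °C over 21 °C, in Drakkar (x axis) and Duplo (y axis) for the 260 genes lowered in Drakkar, with all 3 Duplo libraries at 29 °C (left) and without replicate 3 (right); genes at 0 in Duplo at 29 °C are not drawn. The grey band is the Duplo criterion of 0.8 to 1.25. The 45 chosen genes (red) fill the band on the left by construction, and on the right 9 of them lie above it.

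In the edgeR quasi-likelihood test of Drakkar at 29 °C against 21 °C, 40 of the 45 genes were differentially expressed genes (DEGs, adjusted p under 0.05 and a log2 fold change beyond 1 in size), all lower at 29 °C. Over all 52709 genes tested, 0.757% were lower DEGs. The rule had used this contrast and nothing is read from the count. The 5 that were not DEGs had log2 fold changes from -0.99 to -0.89 and adjusted p-values under 0.05, and were *BnTUBA3*, *BnTRM9*, BnaA03g07740D, BnaA03g04680D and BnaC03g40430D. The median log2 fold change of the 45 was -1.34, against 0.006 over all genes, and -1.22 against 0.13 when libraries were scaled by their totals alone. All 45 had an unadjusted p under 0.05, compared with 28.4% of all genes. The calls depended on single libraries. Leaving out 21 °C replicate 3 left 0 of 45 in edgeR (all 45 still with an unadjusted p under 0.05), and 11 of all genes rather than 1707, while the median log2 fold change of the 45 was -1.40. Leaving out 21 °C replicate 1 or 2 left 2 or 5, leaving out 29 °C replicate 1 or 3 left 12 or 5, and leaving out 29 °C replicate 2 left 39. Over all genes the same 5 fits called 126, 131, 336, 185 and 3173.

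In Duplo, 0 of the 45 genes were DEGs, compared with 0.00194% of 51673 genes (1 gene) in the edgeR test. Of the 45, 1 had an unadjusted p under 0.05, compared with 19.9% of all genes, and DESeq2 called 0 of the 45, compared with 1.35%. The lowest adjusted p among them was 0.235. Individual log2 fold changes ran from -0.36 to 0.21. The median of the 45 was -0.17, against 0.04 over all genes, and it changed sign to 0.08 without replicate 3 at 29 °C. The rule had used this contrast through its band, so nothing is read from the counts in this comparison. In 44 of the 45 genes, the Duplo libraries at the 2 temperatures overlapped, whereas 30.1% of genes over the level minima, with no band applied, had no overlap. The exception was *BnTRM9*, with 8.21, 6.71 and 7.31 CPM at 21 °C, then 6.31, 6.29 and 5.33 CPM at 29 °C.

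The difference between the responses (Duplo minus Drakkar) was tested across all genes with an interaction term. It was positive for all 45 genes, as the rule requires, with a median of 1.26 on the log2 scale against 0.02 over all genes. In edgeR, 0 of the 45 passed, with a lowest adjusted p of 0.241, and 0 of all 55227 genes did. An unadjusted p under 0.05 was found for 35 of the 45, compared with 7.05% of all genes. DESeq2 called 4 of the 45, compared with 0.196% of all genes. They were the A copy of *BnABCG35*, *BnBBE-LIKE 13*, *BnLAC8* and the kinase-like gene BnaCnng60540D. Without Duplo replicate 3 at 29 °C, edgeR called 9 of the 45 and 137 genes in all. Those 9 were BnaCnng60540D (2.79, SE 0.37), BnaC01g06830D (1.54, SE 0.20), the A copy of *BnABCG35* (1.62, SE 0.21), *BnPME3* (1.23, SE 0.20), *BnSCPL43*, BnaA02g21870D, BnaA03g44110D, BnaC03g40430D and BnaC06g38760D.

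The rule set no criterion on the difference between the varieties at 21 °C, but it used the libraries compared, those of Drakkar in its ratio and those of Duplo in its band, so this comparison too is a description. Of the 45 genes, 9 were DEGs between Drakkar and Duplo at 21 °C (edgeR), compared with 12.3% of all 53043 genes tested. Of these, 5 were higher in Drakkar, compared with 6.25% of all genes, and 4 were higher in Duplo, compared with 6.09%. The median log2 difference, Drakkar over Duplo, was 0.13, against 0.003 over all genes, and 27 of the 45 lay within 0.5 of 0. The 5 genes higher in Drakkar were *BnDGR1* (3.47, SE 0.40), *BnNUDT3* (2.66, SE 0.22), *BnNIA1* BnaA07g20840D (2.65, SE 0.32), the MBOAT gene BnaC07g38510D (2.41, SE 0.29) and the A copy of *BnABCG35* (1.56, SE 0.11). The 4 higher in Duplo were the kinase-like gene BnaCnng60540D (-2.68, SE 0.18), BnaA03g44110D (-1.53, SE 0.15), *BnSCPL43* (-1.47, SE 0.20) and BnaC03g40430D (-1.0, SE 0.09). All these 9 except BnaC03g40430D were called in each of the 6 fits that left out 1 library, and BnaC03g40430D in 4.

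**Figure D4:**
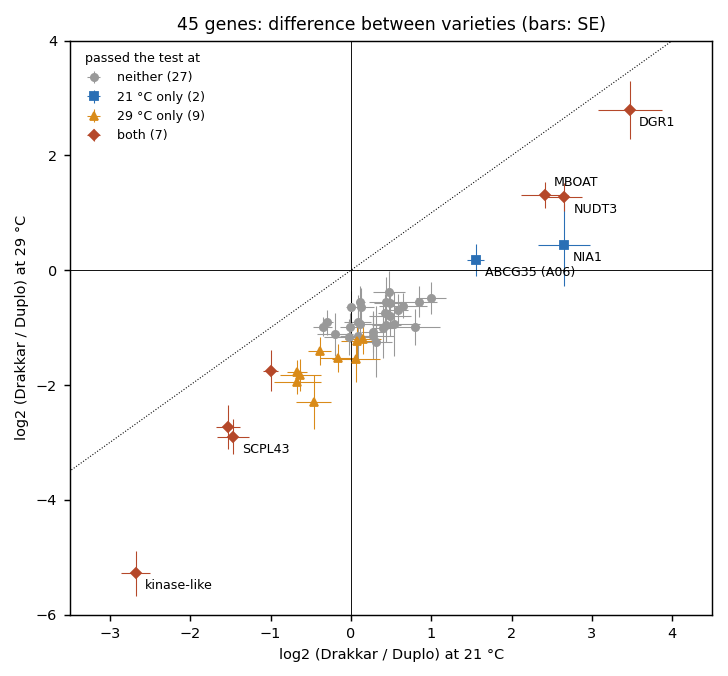
Log2 difference between the varieties (Drakkar over Duplo) at 21 °C (x axis) and 29 °C (y axis) for the 45 genes, with SE bars from edgeR. Symbols show the temperatures at which a gene passed the test (7 at both, 2 at 21 °C only, 9 at 29 °C only, 27 at neither). All points lie below the dotted line of equal differences, as the rule requires.

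At 29 °C the same comparison includes the responses that chose the genes, so a shift towards Duplo was built in. Of the 45 genes, 16 were DEGs between the varieties, compared with 11.1% of all genes. Of these, 13 were higher in Duplo and 3 in Drakkar, compared with 5.17% and 5.96% of all genes. The median log2 difference was -0.98, against -0.02 over all genes. There were 7 DEGs at both temperatures. The kinase-like gene BnaCnng60540D had the largest difference, -5.28 (SE 0.39). *BnSCPL43* had -2.90 (SE 0.31), BnaA03g44110D -2.74 (SE 0.38) and BnaC03g40430D -1.75 (SE 0.35). *BnDGR1*, the MBOAT gene and *BnNUDT3* remained higher in Drakkar, by 2.79 (SE 0.50), 1.31 (SE 0.23) and 1.28 (SE 0.25). In fits lacking 1 of the 6 libraries, *BnNUDT3* was called in 4 of the 6 fits, BnaC03g40430D in 1 and the other 5 genes in all 6.

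*BnNIA1* BnaA07g20840D and the A copy of *BnABCG35* were no longer DEGs at 29 °C, with differences of 0.44 (SE 0.71) and 0.18 (SE 0.27). In 19 of the 45 genes, every Drakkar library at 29 °C lay below every Duplo library, compared with 10.8% of the 40947 genes over the level minima, and in 3 every one lay above, compared with 18.5%. At 21 °C, these counts were 8 (16.1%) and 14 (19.3%). The number of DEGs at 29 °C was 31 without Duplo replicate 3, 10 without Duplo replicate 2 and 10 without Drakkar replicate 1, and over all genes 8174, 5043 and 4796 rather than 5930.

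Other annotated copies of the same Arabidopsis loci missed the criteria by small or large margins. The annotation covers only genes that the study listed as responsive in these samples, so copies outside those lists could not be seen. *BnNIA1* had 5 annotated copies, of which only BnaA07g20840D was taken. The Duplo ratio was 1.21, 1.37 and 1.32 for the copies BnaA07g33690D, BnaC06g20690D and BnaC06g38300D, and their lowest Drakkar library at 21 °C was 1.28, 1.23 and 1.5 times the highest at 29 °C. All 4 copies above 1 CPM thus had lower Drakkar values at 29 °C without overlap, and mean Duplo values that were not lower. These copies were all in the study's list of genes repressed in Drakkar and less repressed or induced in Duplo. Their shared direction is therefore not independent evidence. The fifth copy, BnaCnng60930D, stayed under 1 CPM. For AT1G78260, an RNA-binding protein gene, the 2 genes taken were BnaC06g38760D and BnaA07g20640D, and the third copy, BnaA07g34130D, had the same course with a Drakkar ratio of 1.24. The *BnROSY1* copy BnaC03g39490D missed the Drakkar criterion at 1.45, with a Duplo ratio of 0.909.

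Not all copies moved alike. The tyrosine transaminase family gene BnaC07g38400D lies next to BnaC07g38390D by the numbering of the loci. BnaC07g38390D had 251 to 441 CPM in Drakkar at 21 °C and 80.8 to 93.6 CPM at 29 °C, but its Duplo ratio was 0.607, and that of the A03 copy BnaA03g46060D was 0.564, compared with 1.07 for BnaC07g38400D. Reads of these copies may have been divided between them. A second *BnBBE-LIKE 13* copy, BnaCnng67300D, went the other way in Drakkar, with 3.07 to 3.80 CPM at 21 °C, then 9.44 to 21.0 CPM at 29 °C.

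**Figure D5:**
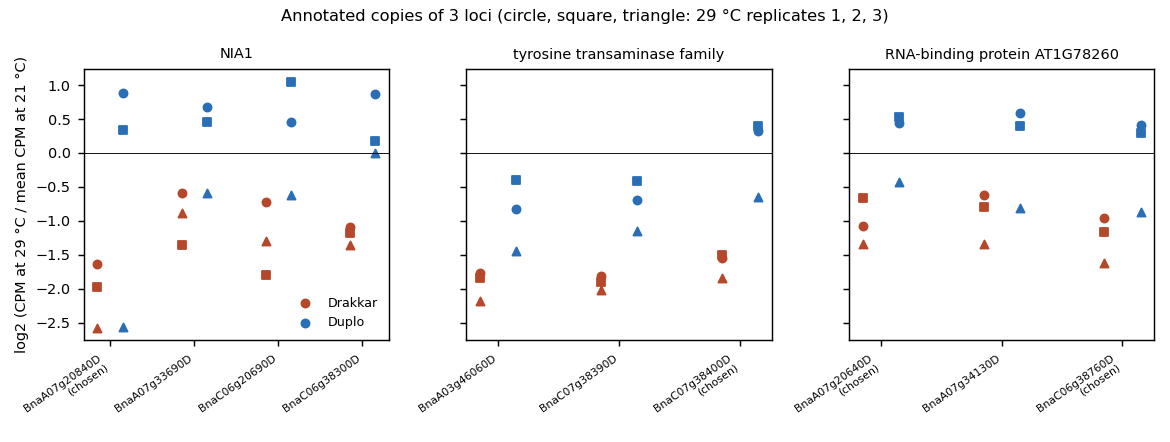
Log2 ratio of each 29 °C library to the 21 °C mean of its variety (Drakkar red, Duplo blue) for the annotated copies with at least 1 CPM in Drakkar at 21 °C of *BnNIA1*, the tyrosine transaminase family gene AT4G23590 and the RNA-binding protein gene AT1G78260. Genes among the 45 are marked as chosen. The Drakkar points are below 0 for every copy, and the Duplo points of the 2 other AT4G23590 copies are below 0 as well.

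The wider pathways were described with 10 lists of annotated genes, written with earlier results known and drawn from genes that the study had listed on these samples, so that their directions are not independent evidence. Of the 45 genes, 13 were in a list and 32 in none. Each list held between 3 and 76 of the 2394 annotated genes, and nothing is read from how many of the 45 it held. Of 17 genes of nitrate uptake, reduction and assimilation, 7 were lower and 2 higher DEGs in Drakkar (edgeR), with a median log2 fold change of -1.06 there and 0.56 in Duplo. The copies BnaA06g04570D and BnaC08g43380D of the high-affinity transporter gene *BnNRT2.1* met the Drakkar criteria but had Duplo ratios of 2.36 and 2.14, above the band. Of 52 cell wall loosening and pectin genes tested, 13 were lower and 18 higher DEGs in Drakkar (median 1.11), so *BnPME3*, *BnDGR1* and BnaA08g28340D belong to the smaller side of that list. Of 35 lipid genes tested, 11 were lower and 11 higher (median 0.54). Of 28 peroxidase and laccase genes, 5 were lower and 15 higher (median 2.18), and *BnLAC8* was one of the 5.

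Of 5 tubulin and histone genes tested, 3 were lower DEGs in Drakkar and 0 higher (median -1.19), and *BnTUBA3* was not among those 3. Besides *BnTUBA3*, the beta-tubulin genes *BnTUB9* (BnaA08g09560D) and *BnTUB1* (BnaC03g63960D) met the Drakkar criteria, but with Duplo ratios of 0.671 and 0.616. Of 23 hormone genes, 5 were lower and 15 higher (median 1.31). Of 7 sulfur genes, 2 were lower and 0 higher (median -1.52), of 14 aquaporin and ion transport genes 4 were lower and 4 higher (median -1.08), and of 2 Casparian strip genes 0 were DEGs (median -1.30). None of these 3 lists held any of the 45. Of 69 heat stress genes tested, 46 were higher and 3 lower (median 2.54). That list held 76 of the 2394 annotated genes and 0 of the 45. In Duplo, 0 genes of any of the 10 lists were DEGs (edgeR), where 1 gene of 51673 was one in all, and DESeq2 called 915 of 67960.

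By their identifiers, 27 of the 45 genes lay in the A and 18 in the C subgenome (60.0% and 40.0%), compared with 48.8% and 51.0% of the 40947 genes over the level minima. Chromosome A03 held 8 and A07 held 7 of them, that is 17.8% and 15.6%, compared with 6.82% and 4.56% of those genes. Among the 7 on A07 were *BnNIA1*, *BnNUDT3* and *BnDGR1*, which were higher in Drakkar at 21 °C. There were 2 pairs of neighbours within 20 numbered loci of each other. BnaA07g20640D and *BnNIA1* BnaA07g20840D were 20 loci apart, and BnaC07g38400D and the MBOAT gene BnaC07g38510D 11 loci apart.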

How the data were processed

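RNA of 12 root tip libraries had been prepared with the TruSeq Stranded mRNA kit. Per the study's methods and labels, the authors aligned reads with HISAT2 to the *B. napus* genome AST_PRJEB5043_v1 and deposited whole-number read counts per gene, not normalized. The counting program and the versions of HISAT2 and DESeq2 are not given in the sources used here. The deposited comparison tables, which hold the authors' fold changes and p-values from DESeq2, were not used. Samples were grouped by their labels, which do not tell whether replicates were separate cultures, while the study's methods call them biological. The row without a gene name (at most 2 counts per library) was left out. CPM is the count divided by the library total, times 1000000.

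DEGs were tested with edgeR 4.0.16 in R 4.3.3 (filterByExpr, TMM, quasi-likelihood F-test, 2-sided, Benjamini-Hochberg adjustment over all genes tested, adjusted p under 0.05 and log2 fold change beyond 1), fitted on the 6 libraries compared, or on all 12 for the interaction. The test was checked on simulated counts. Alternatives were DESeq2 1.42.0, RLE size factors, library totals, no low-count filter, a replicate block, no fold threshold, 1 fit of all libraries, other rule settings and leaving out each library. The 45 genes, the lists and the tests were chosen with earlier results of these data known.

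Named genes were the 12 with the highest Drakkar level at 21 °C, the 12 with the largest ratio of lowest 21 °C to highest 29 °C library, those in a list, those next to a threshold, those differing between varieties at both temperatures, and other copies of their loci. *BnBBE-LIKE 13*, *BnCPK16*, the tyrosine transaminase family gene, BnaA02g21870D and other genes named outside this rule were chosen after their values were seen. Of the 45 identifiers, 1 occurred as a symbol in the RefSeq table of another assembly (Da-Ae), so no coordinates or sequences are given.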

Additional observations from a re-analysis of the deposited data

How the results depend on the processing

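The rule gave 72 genes with TMM-scaled CPM (39 of the 45 among them), 6 with a Drakkar ratio of 2, 20 with a Duplo band from 0.9 to 1.1, and 33 to 234 when 1 library was left out (Drakkar 21 °C replicates 2 and 3: 75 and 86, Drakkar 29 °C replicates 1 and 2: 127 and 234). The other settings stayed within 1.5 times of 45. Replicate numbers were not used to pair the samples in the main fits. Same-numbered libraries correlated from -0.188 to 0.356 in their deviations, and not all correlations exceeded 0.1 in any comparison. The highest, 0.356, was between the replicate 3 libraries of Drakkar and Duplo at 29 °C, and its source was not tested. With the number as a replicate block, Drakkar DEGs among the 45 fell from 40 to 15. Over all genes they fell from 1707 to 545, and the median log2 fold change of the 45 was -1.35. With this block, 0 of the 45 passed in Duplo and in the interaction, compared with 0 and 6 of all genes. Between varieties, 9 of the 45 passed at 21 °C and 17 at 29 °C, compared with 6144 of 53043 and 5772 of 53283 genes. Leaving out 1 library gave 0 to 39 Drakkar DEGs, 0 in Duplo, 0 to 9 for the interaction (9 without Duplo 29 °C replicate 3), 8 to 11 between varieties at 21 °C and 10 to 31 at 29 °C. Over all genes, these fits called 11 to 3173 in Drakkar, 0 to 396 in Duplo and 0 to 137 for the interaction. Between varieties they called 5805 to 6832 genes at 21 °C and 4796 to 8174 at 29 °C. DESeq2 gave 4 for the interaction, compared with 0.196% of all genes. Without a fold threshold, 15 of the 45 differed between varieties at 21 °C, compared with 21.7% of all 53043 genes tested. No called gene changed direction. Depth limits the 7 genes under 2 CPM, with as few as 8 reads in a library.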
